A study of Mus musculus with 10 samples.

Results

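The Hox genes code for homeodomain transcription factors and lie in 4 clusters of the mouse genome, HoxA, HoxB, HoxC and HoxD. Here 38 listed Hox genes were followed, 10 in HoxA, 10 in HoxB, 9 in HoxC and 9 in HoxD, out of 21938 protein-coding genes on chromosomes 1 to 19, X and Y. They were chosen by gene name with no measured value in the rule, although earlier results of these data were known at that time. The cells were F123 mouse embryonic stem cells, a line from an F1 cross of Mus musculus castaneus and S129/SvJae, with no genetic change and no treatment. They were kept with LIF in serum replacement medium on irradiated CF1 mouse embryonic fibroblasts, and passaged once without feeders before harvest. Trimethylation of lysine 4 of histone H3 (H3K4me3), a mark of gene starts, was mapped by ChIP-seq on 2000000 cells per sample, and open chromatin by ATAC-seq on 100000 cells per sample, each in 2 replicates. Each assay gave a single list of peaks found in both replicates, with 33487 H3K4me3 peaks and 179109 ATAC-seq peaks. A value therefore has no replicate spread, the depth of the libraries is unknown, and every comparison below is a description without a test.

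Hox genes give cells of the embryo their position along the body axis. Genes at the anterior end of a cluster (paralogue group 1) are switched on first and furthest towards the head, and those at the posterior end (group 13) last and closest to the tail, an order known as colinearity. In embryonic stem cells the clusters are known as a textbook case of bivalent chromatin, in which H3K4me3 lies together with the repressive mark H3K27me3 laid by Polycomb complexes. H3K27me3 and RNA were not analysed here, so a peak below is a position of the mark or of open chromatin and not a level of expression.

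The start of nearly every Hox gene carried H3K4me3. A peak lay within 1 Kb of the start of the gene record (GENCODE M21, mm10) for 36 of 38 genes (94.7%, exact 95% interval 82.3 to 99.4%), against 65.2% of all protein-coding genes. An ATAC-seq peak lay there for 32 of 38 genes (84.2%, 68.7 to 94.0%), against 71% of all protein-coding genes. Both kinds of peak were present at the same 32 starts, against 64.4% of protein-coding genes, and no Hox start had an ATAC-seq peak without H3K4me3. These intervals cover counting error only, and neighbouring Hox genes are not independent of each other. The first base of the gene lay inside an H3K4me3 peak for 33 genes (background 61.1%) and inside an ATAC-seq peak for 21 genes, or 55.3% (background 62.5%).

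The starts with neither peak were those of Hoxb3 and Hoxc4, and the 4 with H3K4me3 and no ATAC-seq peak were those of Hoxa3, Hoxa6, Hoxb2 and Hoxb8. Of the genes inside the limit of 1 Kb, Hoxb2 had the most distant H3K4me3 peak, at 488 bp, while Hoxb3 and Hoxc4 lay 2430 and 2661 bp from theirs. For ATAC-seq the most distant peaks inside the limit were at 549 bp from Hoxb6 and 748 bp from Hoxc6, and those outside it ranged from 1114 bp for Hoxa3 to 3171 bp for Hoxb3. Hoxb8, at 1116 bp, missed the ATAC-seq limit as narrowly as Hoxa3, while no gene was near the limit for H3K4me3.

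The mark at these starts was weak and of ordinary width. Fold enrichment, the height of a peak over the background of the peak caller, had a median of 10.7 over the strongest peak at each of the 36 marked Hox starts, with quartiles of 7.13 and 14.8. Over all 14295 marked protein-coding starts the median was 30.6, with quartiles of 20.4 and 40.2. All 36 Hox starts were below that median. The strongest, Hoxa7, had a fold of 24.5, and only 33.8% of marked protein-coding starts went no higher. Widths were close to those of other starts, with a median of 2377 bp (quartiles 1753 and 3244 bp) against 2163 bp (1584 and 2867 bp). The peak was wider than the median of all marked starts at 21 of 36 Hox starts (58.3%), near the share that a median leaves above it. These 21 were thus both wider and of lower fold than the medians, as were 16.6% of all marked protein-coding starts. Over all marked starts width had a Spearman rho of 0.50 with fold. The ordinary width is therefore a comparison with all marked starts and not with starts of like fold.

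**Figure D1:**
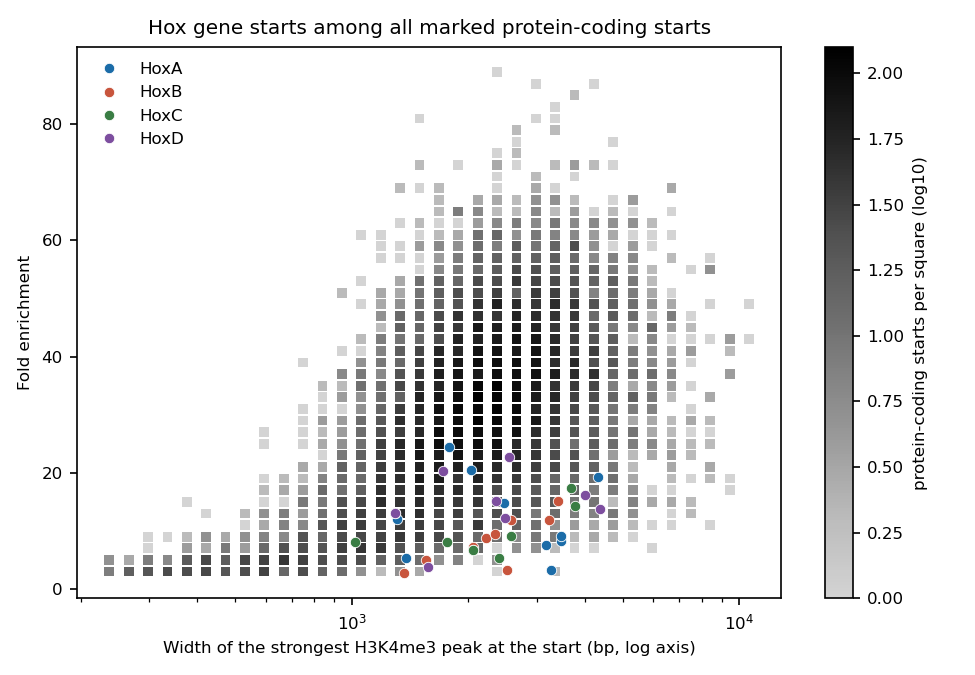
Width in bp (log axis) against fold enrichment of the strongest H3K4me3 peak within 1 Kb of a start. Coloured points are the 36 marked Hox starts by cluster, and grey squares count all 14295 marked protein-coding starts. The Hox starts fill the lower edge of the cloud, at folds of 2.68 to 24.5 and widths of 1023 to 4376 bp.

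In HoxA (chr6:52162417-52260880, minus strand) all 10 starts carried H3K4me3 and 8 carried ATAC-seq peaks. Hoxa7 had the highest fold of all members at the start of its record, 24.5, in a peak of 1785 bp with a −log10 q of 219 and 1 ATAC-seq peak over the start base. Hoxa4 followed with a fold of 20.5 over 2026 bp, and Hoxa5, which takes part in the patterning of the neck, thorax and airways, with 19.3 over 4312 bp, the widest start peak of the cluster. These 3 starts lay in the central part of HoxA and each had its first base in an ATAC-seq peak. Hoxa13, needed for digits and the genital tract, closed the posterior end with a fold of 14.8 over 2466 bp and 2 ATAC-seq peaks. Hoxa6 had the narrowest start peak of the cluster, 1311 bp at a fold of 12.1, and its nearest ATAC-seq peak was 2667 bp away. Hoxa6 was also the only member with no ATAC-seq peak anywhere over its gene record.

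The other HoxA starts were weaker. Hoxa9, a regulator of blood stem cells, was marked only beside its start, whose first base lay 8 bp outside the nearest peak (fold 5.60, 1394 bp). The strongest peak in the Hoxa9 window, with a fold of 9.14 over 3477 bp, lay over the Hoxa10 record. Hoxa2, which patterns the hindbrain and branchial arches, had a fold of 8.32 over 3468 bp, and Hoxa11, a limb and uterus regulator, 7.49 over 3178 bp, both broad peaks with 2 and 3 ATAC-seq peaks at the start. Hoxa10 had a fold of 5.29 over 1380 bp. Hoxa3, required for the thymus and parathyroid, had the lowest fold of the cluster, 3.30, although its peak was 3267 bp wide. Only 0.937% of marked protein-coding starts had a lower fold than Hoxa3, and 83.4% had a narrower peak.

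In HoxB (chr11:96194316-96368256, plus strand) 9 of 10 starts carried H3K4me3 and 7 carried ATAC-seq peaks. Hoxb4, a blood stem cell factor, had the highest fold, 15.1, and the widest start peak, 3403 bp, with 3 ATAC-seq peaks in the window. Hoxb7 and Hoxb13 stood next to each other in strength, at folds of 11.9 over 2571 bp and 11.9 over 3236 bp, although their starts lie at opposite sides of the long interval that separates Hoxb13 from the rest. Hoxb9 had a fold of 9.45 over 2340 bp, Hoxb5 8.79 over 2227 bp and Hoxb1, a hindbrain gene, 7.28 over 2052 bp. Hoxb6 had a fold of only 3.33 in a peak of 2511 bp.

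The weakest start of the whole set was that of Hoxb2, with a fold of 2.68 and a −log10 q of 5.20. Its peak of 1366 bp, the narrowest at a HoxB start, ended before the first base of the gene. Hoxb8 had a fold of 5.03 over 1559 bp in a peak that began 303 bp after the first base. Hoxb3 had no H3K4me3 or ATAC-seq peak in its window, yet 7 H3K4me3 peaks and 7 ATAC-seq peaks lay over the rest of its 24605 bp record. HoxB therefore held 3 of the 5 genes whose first base was outside H3K4me3, and 3 of the 6 without ATAC-seq at the start.

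In HoxC (chr15:102921103-103036852, plus strand) 8 of 9 starts carried both kinds of peak. Hoxc6 had the highest fold, 17.4, over 3673 bp, with its summit 1163 bp after the start. Hoxc13, which acts in hair follicles, had a fold of 14.3 over 3777 bp, the widest start peak of the cluster, and an ATAC-seq peak of 1599 bp over its first base. Folds were 9.12 at Hoxc11, 8.11 at Hoxc12 and 8.04 at Hoxc8, where the peak was the narrowest of all marked Hox starts, at 1023 bp. Hoxc9, a regulator of motor neuron identity in the thorax, had the lowest fold of the cluster, 5.27 over 2398 bp. Hoxc10 and Hoxc5 shared 1 peak (fold 6.67, 2055 bp), because the long gene record of Hoxc5 begins 647 bp after that of Hoxc10. Hoxc4 had neither peak at the start of its record.

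In HoxD (chr2:74668310-74765142, plus strand) all 9 starts carried both kinds of peak, and the median fold, 13.7, was the highest of the clusters, against 10.6 in HoxA, 8.79 in HoxB and 8.07 in HoxC. Hoxd8 had a fold of 22.7 over 2540 bp and an ATAC-seq peak of 1482 bp over its first base. Hoxd1, at the anterior end, had 20.3 over 1718 bp, and Hoxd9 had 16.2 over 4002 bp, a peak that covered the whole of its 2482 bp record. Hoxd13, whose loss disturbs digit formation, had 15.2 over 2356 bp. Hoxd11, a partner of Hoxa11 in the forearm, had the widest start peak of all members, 4376 bp at a fold of 13.7, with its summit 3171 bp after the start of the record. Hoxd10 had a fold of 12.2. Hoxd3 and Hoxd4 have records that begin 2 bp apart and shared 1 peak of 1293 bp (fold 13.1), the narrowest at a HoxD start. Hoxd12 stood apart with a fold of 3.72 over 1576 bp, between stronger peaks at both neighbours.

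**Figure D2:**
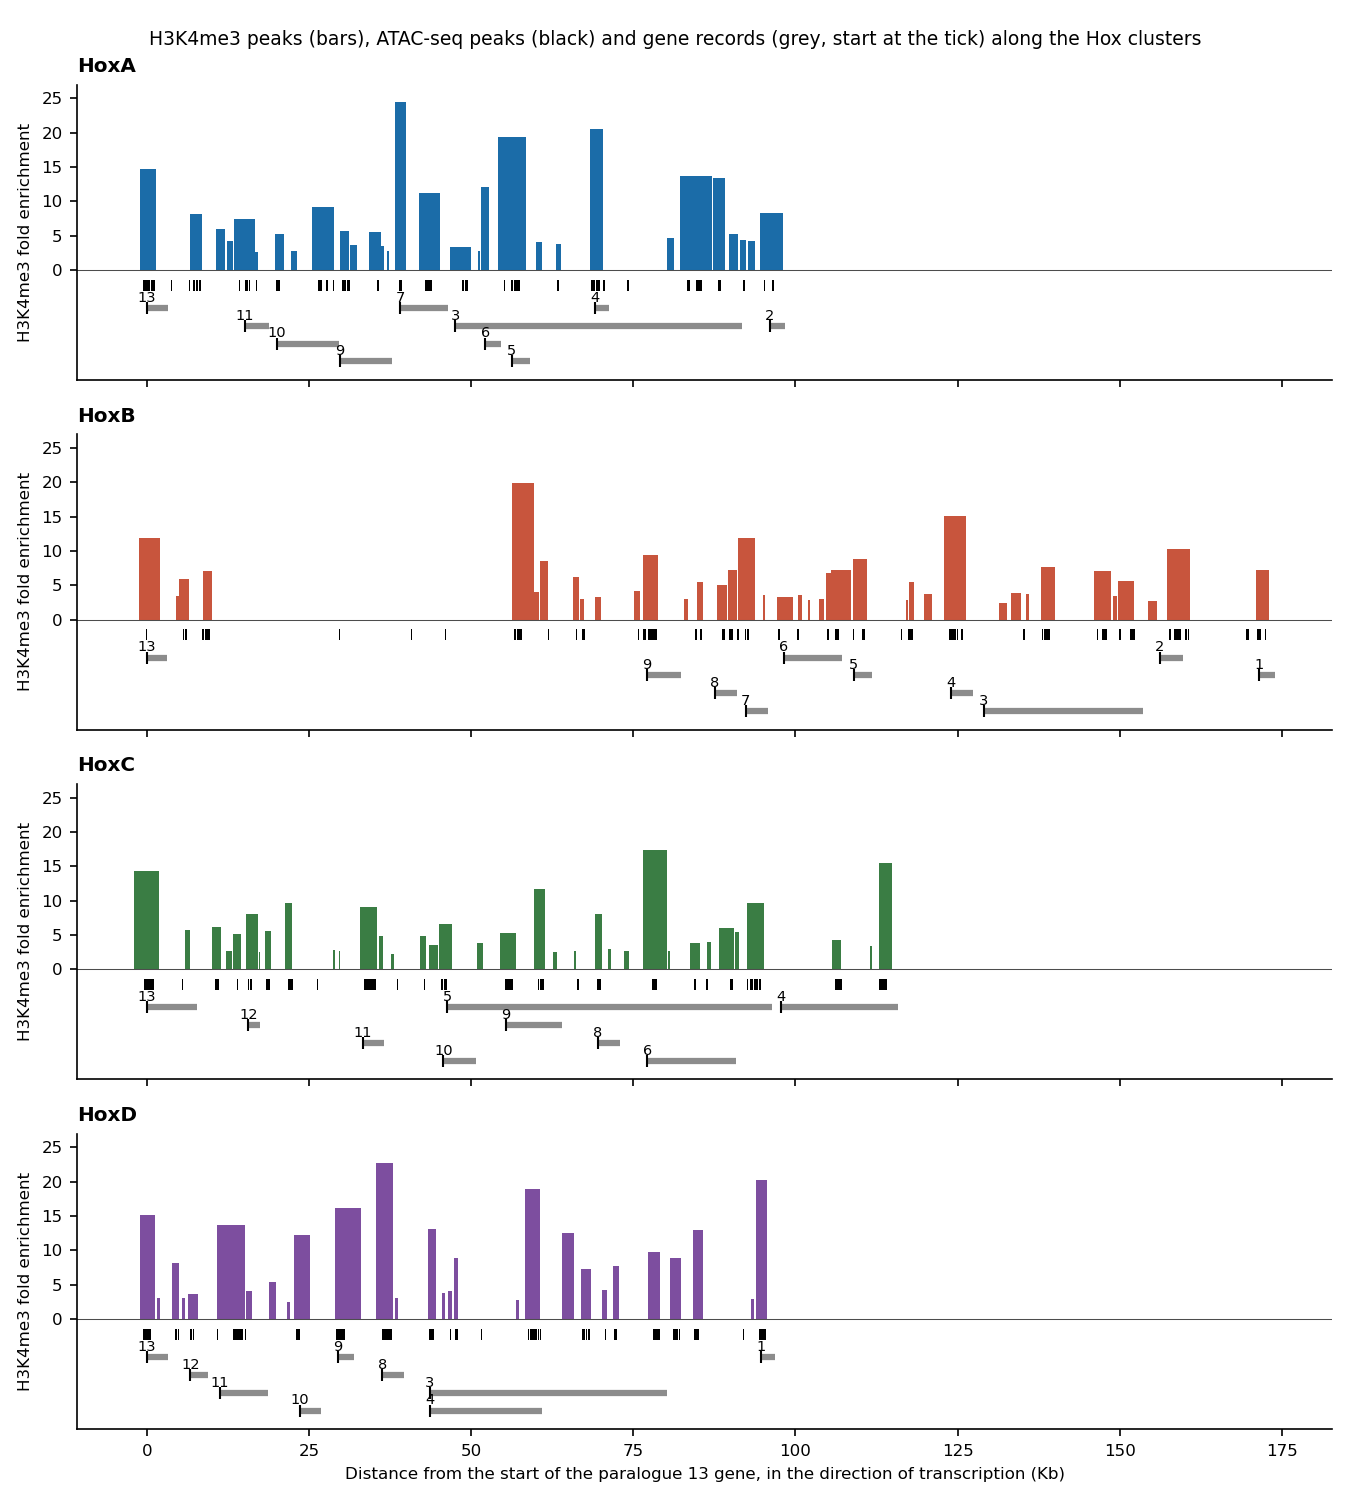
H3K4me3 peaks of each cluster drawn as bars as wide as the peak and as high as its fold enrichment, above ATAC-seq peaks in black and gene records in grey with their paralogue number, by distance in Kb from the start of the group 13 gene. Peaks of high fold alternate with many low ones, and HoxB shows a bare stretch of 46.2 Kb after Hoxb13.

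Some records begin far from the start of the principal coding transcript, by over 500 bp in 13 of 38 genes. At principal starts H3K4me3 was present for 37 and ATAC-seq for 34 of 38 genes. Hoxc4 moved the most in strength, since its principal start, 15461 bp into the record, had a peak with a fold of 15.5 over 2078 bp and an ATAC-seq peak. The principal start of Hoxb3, 20443 bp into the record, had a fold of 7.09 over 2581 bp, and that of Hoxb2, 1106 bp in, a fold of 10.3 over 3567 bp, each with 1 ATAC-seq peak. Hoxc5 had a peak of its own there, with a fold of 9.63 over 2629 bp and 4 ATAC-seq peaks. The folds of Hoxa10 and Hoxb6 were also higher there, at 9.14 and 7.17. Other genes went the other way. At the principal start the fold of Hoxa7 was 11.2 in place of 24.5, that of Hoxc6 6.02 in place of 17.4, that of Hoxd3 7.72 in place of 13.1 and that of Hoxa9 5.48 in place of 9.14. The rank of Hoxa7 and Hoxc6 as the strongest starts of their clusters therefore holds for record starts. The principal start of Hoxd4, 10049 bp into the record, had no H3K4me3 or ATAC-seq peak within 1 Kb, while an inner start of the same gene lay at a peak with a fold of 19.0 over 2325 bp (chr2:74726630-74728954). With any annotated transcript start, all 38 genes had H3K4me3 and 37 had ATAC-seq.

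CpG dinucleotides are bound by CxxC domain proteins of the H3K4 methyltransferase complexes, so the sequence around the starts was read next. RefSeq (GRCm38.p6) windows from 250 bases before to 50 after a start were held for 22 of the 38 genes, in 24 windows. Under 80% of the genes have a window, so a check of sequence over all members is void, and the values are those of the windows held. Windows not held were those of Hoxa4, Hoxb2, Hoxb3, Hoxb5, Hoxb6, Hoxb7, Hoxb9, Hoxb13, Hoxc5, Hoxc6, Hoxc8, Hoxc9, Hoxc10, Hoxc11, Hoxc12 and Hoxc13. Below are the 4 windows with the most CG and the 4 with the fewest, to show both ends of the range in CG number, each on the strand of its gene and with CG in capitals.
Hoxa13, chr6:52260831-52261130, minus strand: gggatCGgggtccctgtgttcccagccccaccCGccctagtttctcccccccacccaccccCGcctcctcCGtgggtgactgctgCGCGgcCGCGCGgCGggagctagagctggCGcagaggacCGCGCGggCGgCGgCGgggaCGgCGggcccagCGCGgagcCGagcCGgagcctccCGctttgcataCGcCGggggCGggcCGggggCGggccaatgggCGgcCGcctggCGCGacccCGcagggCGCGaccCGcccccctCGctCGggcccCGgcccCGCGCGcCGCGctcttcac
Hoxd13, chr2:74667975-74668274, plus strand: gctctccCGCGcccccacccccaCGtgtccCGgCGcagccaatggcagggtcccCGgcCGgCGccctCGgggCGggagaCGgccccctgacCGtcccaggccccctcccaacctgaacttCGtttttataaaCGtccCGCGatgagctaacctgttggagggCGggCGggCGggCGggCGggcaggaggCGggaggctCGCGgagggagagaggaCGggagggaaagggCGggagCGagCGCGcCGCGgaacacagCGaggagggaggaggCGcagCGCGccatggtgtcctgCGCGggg
Hoxa5, chr6:52204538-52204837, minus strand: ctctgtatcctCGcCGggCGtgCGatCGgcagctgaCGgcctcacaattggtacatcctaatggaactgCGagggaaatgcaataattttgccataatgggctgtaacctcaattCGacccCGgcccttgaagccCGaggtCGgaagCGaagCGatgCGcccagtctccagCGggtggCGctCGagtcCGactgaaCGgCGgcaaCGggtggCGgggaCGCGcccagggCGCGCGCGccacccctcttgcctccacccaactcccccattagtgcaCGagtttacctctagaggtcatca
Hoxd1, chr2:74762730-74763029, plus strand: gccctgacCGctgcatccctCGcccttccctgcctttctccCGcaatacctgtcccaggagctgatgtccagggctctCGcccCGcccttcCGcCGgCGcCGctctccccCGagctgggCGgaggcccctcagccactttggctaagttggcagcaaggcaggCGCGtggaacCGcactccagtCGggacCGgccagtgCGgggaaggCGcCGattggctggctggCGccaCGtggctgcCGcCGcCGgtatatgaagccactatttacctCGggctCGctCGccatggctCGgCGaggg
Hoxd8, chr2:74704365-74704664, plus strand: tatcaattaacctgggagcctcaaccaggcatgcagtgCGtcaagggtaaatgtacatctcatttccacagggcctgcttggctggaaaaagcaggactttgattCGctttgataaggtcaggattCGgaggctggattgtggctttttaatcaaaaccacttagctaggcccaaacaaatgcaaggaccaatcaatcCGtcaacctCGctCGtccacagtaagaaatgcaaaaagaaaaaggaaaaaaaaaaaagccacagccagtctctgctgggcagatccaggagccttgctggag
Hoxa9, chr6:52227321-52227620, minus strand: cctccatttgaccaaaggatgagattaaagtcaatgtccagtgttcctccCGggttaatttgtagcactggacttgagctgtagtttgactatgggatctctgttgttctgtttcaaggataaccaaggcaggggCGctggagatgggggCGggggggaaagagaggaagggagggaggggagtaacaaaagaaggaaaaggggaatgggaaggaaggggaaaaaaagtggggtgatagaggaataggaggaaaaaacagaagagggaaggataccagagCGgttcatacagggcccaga
Hoxd11, chr2:74679308-74679607, plus strand: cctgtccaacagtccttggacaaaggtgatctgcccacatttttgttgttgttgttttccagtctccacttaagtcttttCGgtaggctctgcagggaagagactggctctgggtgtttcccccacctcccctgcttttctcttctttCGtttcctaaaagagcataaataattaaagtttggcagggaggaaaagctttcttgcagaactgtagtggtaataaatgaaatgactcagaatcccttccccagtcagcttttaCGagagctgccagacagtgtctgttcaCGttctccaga
Hoxd4, chr2:74721728-74722027, plus strand: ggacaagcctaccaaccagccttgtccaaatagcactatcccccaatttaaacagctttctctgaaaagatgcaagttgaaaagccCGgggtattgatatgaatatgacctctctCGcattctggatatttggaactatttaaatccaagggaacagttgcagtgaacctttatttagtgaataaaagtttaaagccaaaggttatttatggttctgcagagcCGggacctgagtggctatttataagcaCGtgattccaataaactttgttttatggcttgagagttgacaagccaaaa

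The 4 windows with the most CG all sat in peaks above the Hox median fold of 10.7. Hoxa13 held 45 CG in 300 bases (fold 14.8), Hoxd13 held 37 (15.2), and Hoxa5 and Hoxd1 held 29 each (19.3 and 20.3). Windows with at least 29 CG made up 12.9% of the 32851 RefSeq windows, and 99.2% of those had H3K4me3 within 1 Kb of their start. The CG-poor windows did not behave alike. Hoxd4 held 4 CG and had neither H3K4me3 nor ATAC-seq. Hoxa9, at an inner start also with 4 CG, had no ATAC-seq peak within 1 Kb. Its window lay outside H3K4me3, although a peak with a fold of 5.48 was within 1 Kb of that start. The upstream window of Hoxd11 held 4 CG and that of Hoxd8 held 6, yet both lay inside peaks, with folds of 13.7 and 22.7. In both genes the summit lay after the window, by 3171 bp from the record start of Hoxd11 and by 770 bp from that of Hoxd8. Over all RefSeq windows with at most 6 CG, 13.3% had H3K4me3 and 28.3% had ATAC-seq.

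Among the windows between these ends, Hoxa6 held 26 CG and the downstream start of Hoxd11 25. Hoxd10 held 22, the inner start of Hoxa10 21, and Hoxa3, Hoxd3 and Hoxd9 held 20 each. Hoxa3 shows that CG number and fold can part, since its fold was 3.30 against 16.2 for Hoxd9 with the same count. Hoxa11 held 15, Hoxb4 14, Hoxb8 and Hoxd12 13 each, the upstream start of Hoxa10 12, Hoxb1 10, and Hoxa2, Hoxc4 and the inner start of Hoxa7 9 each. Searched on both strands, the word CCAAT (the CCAAT box) was in 15 of the 24 windows held (37.4% of all RefSeq windows have it), GGGCGG (the GC box) in 10 (35.7% of all) and TATAAA (known as the TATA box) in 4 (13.6% of all), those of Hoxd13, the inner start of Hoxa10, Hoxb8 and Hoxd4. GGGCGG and CCAAT can share up to 2 letters where they meet on opposite strands, and a match is only a run of letters.

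Position along the clusters did not order the strength of the mark. Fold had a Spearman rho of 0.0034 with paralogue number over the 36 marked starts, and width a rho of 0.22, given as descriptions since neighbours share peaks. The median fold was 7.80 for the anterior genes (groups 1 to 3, 6 of 7 marked), 12.6 for the central genes (groups 4 to 8, 14 of 15 marked) and 9.29 for the posterior genes (groups 9 to 13, 16 of 16 marked). ATAC-seq peaks were at 4 of 7 anterior, 12 of 15 central and 16 of 16 posterior starts. All 6 record starts without an ATAC-seq peak thus belonged to groups 2 to 8. This order holds for record starts only. At principal starts every anterior gene had an ATAC-seq peak, and the genes without one were Hoxa6, Hoxb8, Hoxd4 and the posterior gene Hoxa9. The median number of bases of the 2 Kb window under ATAC-seq peaks was 476, 511 and 856 bp in the same order, with a rho of only 0.28 to paralogue number over the 38 starts.

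Within a paralogue group the copies could be far apart. Group 8 ran from a fold of 5.03 at Hoxb8 to 22.7 at Hoxd8, and group 6 from 3.33 at Hoxb6 to 17.4 at Hoxc6. The order in group 6 holds for record starts only, since at principal starts Hoxb6 had 7.17 and Hoxc6 6.02. Group 1 held 7.28 at Hoxb1 and 20.3 at Hoxd1. Group 13 had folds of 11.9, 14.3, 14.8 and 15.2 in HoxB, HoxC, HoxA and HoxD, and windows covered end to end by H3K4me3 in all 4 clusters. It was more even than group 9, the only other group with 4 marked genes, with folds of 5.27 to 16.2. Group 12 was low in both of its genes, with 3.72 at Hoxd12 and 8.11 at Hoxc12.

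**Figure D3:**
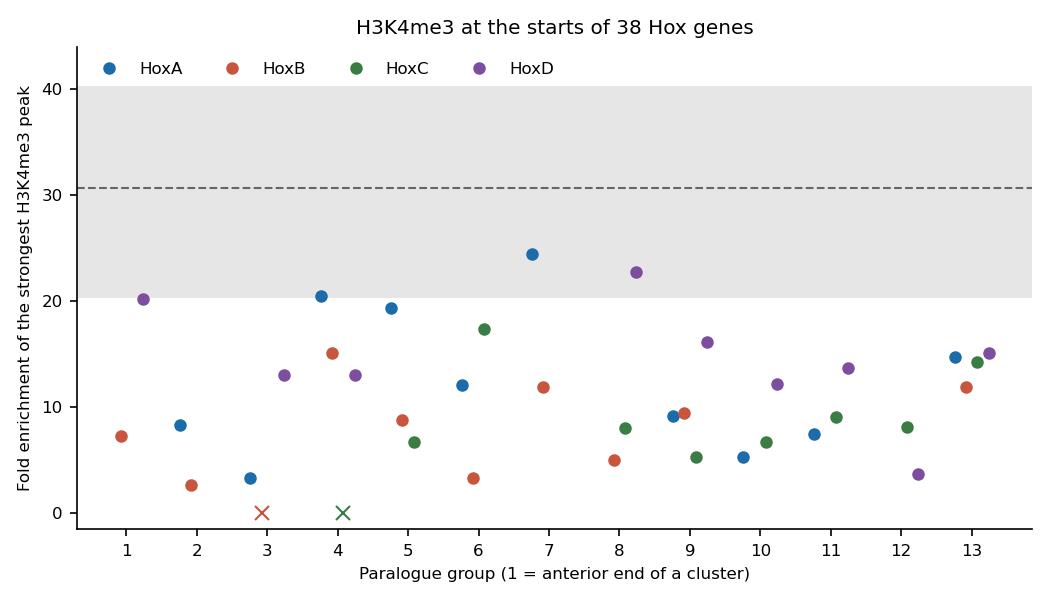
Fold enrichment of the strongest H3K4me3 peak within 1 Kb of each Hox start by paralogue group, with colours for clusters and crosses for Hoxb3 and Hoxc4, which had no peak. The dashed line and grey band are the median (30.6) and quartiles (20.4 and 40.2) of all marked protein-coding starts, and no Hox gene reaches the line.

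The mark was not limited to starts but lay over much of many gene records. Every one of the 38 gene records held an H3K4me3 peak (background 71.2%) and 37 held an ATAC-seq peak (background 81.1%). The share of the record under H3K4me3 ranged from 21.5% in Hoxc4 to 100% in Hoxd9, with a median of 55.8%, against a median of 3.55% over all protein-coding genes. It was at least 50% in 22 of 38 Hox genes, against 5.69% of all protein-coding genes. Hox genes are short, and among records of under 10 Kb the count was 21 of 31 (67.7%), against 15.4% of all protein-coding genes of that length. The nearest like comparison is with the 3675 protein-coding genes of that length that had H3K4me3 at the start, whose median share was 33.4%, against 58.4% for the 31 Hox genes. After Hoxd9 the most covered were Hoxc12 (91.7%), Hoxb8 (88.5%), Hoxc11 (86.8%) and Hoxa2 (81.8%). Hoxb8 and Hoxc12 are not genes of high fold, so a covered body and a strong start went apart. The longest records held the most peaks, with 16 H3K4me3 and 16 ATAC-seq peaks over the 49987 bp of Hoxc5, which spans other Hox genes, 12 and 13 over Hoxa3 and 11 and 14 over Hoxd3.

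At the scale of the clusters H3K4me3 covered 53.4% of HoxA (98.5 Kb), 33.2% of HoxB (174 Kb), 37.1% of HoxC (116 Kb) and 40.8% of HoxD (96.8 Kb), in 30, 39, 35 and 28 peaks. The 100 Kb beyond the anterior end were covered to 8.05, 3.66, 10.1 and 1.91%, and those beyond the posterior end to 16.2, 9.67, 5.26 and 9.50%. Autosomal windows as long as each cluster had a median of 0 to 0.549% and a 99th percentile of 14.2 to 15.8%. None of 25004 windows was covered as much as HoxA. For HoxB the only such window of 14149 was one that overlapped a Hox cluster. For HoxC 3 of 21266 windows reached it, of which 2 overlapped a Hox cluster, and for HoxD 4 of 25422, of which 3 did. The number of peaks was as unusual, since 1, 1, 1 and 3 windows held as many H3K4me3 peaks as HoxA, HoxB, HoxC and HoxD.

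**Figure D4:**
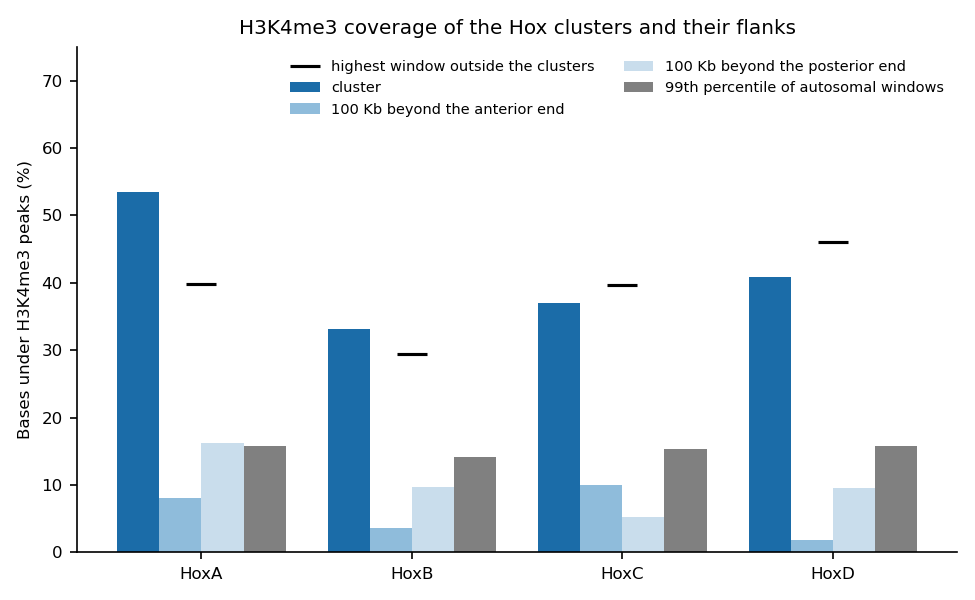
Share of bases under H3K4me3 peaks in each cluster, in the 100 Kb beyond either end and at the 99th percentile of autosomal windows of the same length, with a line for the highest window that overlaps no Hox cluster. The clusters reach 33.2 to 53.4% while the flanks reach at most 16.2%, and only for HoxC and HoxD does the line lie above the cluster.

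Most of these peaks were small and stood close together. The 132 H3K4me3 peaks of the 4 clusters had a median width of 1282 bp and a median fold of 5.40, and 36 of the 128 gaps between neighbours in a cluster were shorter than 500 bp. The window of a start held more than 1 peak for 5 of 36 marked Hox genes (13.9%), namely Hoxa6, Hoxa9, Hoxb5, Hoxc10 and Hoxd12, against 6.69% of marked protein-coding starts. By place, 39 peaks touched the 1 Kb window of a gene record start (median fold 9.12, median width 2356 bp) and 22 that of another transcript start of a member (6.44, 1703 bp). Another 9 lay at the start of a noncoding or other gene (8.96, 927 bp). In members, 16 lay in exons (4.16, 647 bp) and 15 in introns (3.75, 737 bp). The last 31 lay outside the records of members (4.85, 926 bp), some of them inside noncoding genes such as Hoxaas2, Hoxa11os and Haglr. The peaks at record starts were thus the widest and strongest of these classes.

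A few peaks away from the record starts were strong. The strongest in HoxB was at none of its Hox genes but at chr11:96250549-96254019, between Hoxb13 and Hoxb9, with a fold of 20.0 over 3471 bp within 1 Kb of the start of the noncoding gene Gm53, which was singled out after its value was seen. In HoxC an exon of Hoxc9 held a peak with a fold of 11.6 over 1783 bp (chr15:102980746-102982528), above the 5.27 at the start of that gene. In HoxA the widest peak of all clusters, 5053 bp at a fold of 13.7 (chr6:52173690-52178742), lay in the Hoxa3 record at the start of the antisense gene Hoxaas3.

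The longest stretches without H3K4me3 also had a place. In HoxB 46.2 Kb without a peak (chr11:96204309-96250548) separated Hoxb13 from the other genes, with 3 ATAC-seq peaks, and 10.2 Kb lay between Hoxb2 and Hoxb1. In HoxC the longest gap, 10.4 Kb (chr15:103016274-103026673), held the record start of Hoxc4 and no ATAC-seq peak. In HoxA it was 9.86 Kb from Hoxa3 exons into the Hoxa4 record. In HoxD it was 8.94 Kb within Hoxd3 and Hoxd4, a stretch that includes the principal start of Hoxd4. The densest interval between different starts over 1 Kb apart was that from Hoxb8 to Hoxb7, with 89.0% of 4718 bp under H3K4me3, and the barest that from Hoxb13 to Hoxb9, with 19.0% of 77141 bp.

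ATAC-seq peaks were dense in the clusters as well, although less exceptional. HoxA held 37.6 per 100 Kb, HoxD 33.0, HoxB 29.9 and HoxC 28.5. As many peaks were found in 11 of the autosomal windows for HoxA (0.044%), 38 for HoxD (0.149%), 23 for HoxB (0.163%) and 113 for HoxC (0.531%), where the median window held 5, 5, 9 and 6. The flanks held 4 to 14 peaks per 100 Kb. Of the 154 ATAC-seq peaks in the clusters, 137 (89.0%) overlapped H3K4me3 by 1 bp or more, against 21.2% of autosomal ATAC-seq peaks. These shares are not corrected for coverage. H3K4me3 covered 39.7% of the clusters but only 47218071 of 2395908738 bp of the autosomes. In the other direction, only 81 of the 132 H3K4me3 peaks (61.4%) held an ATAC-seq peak, against 87% of autosomal H3K4me3 peaks. The 51 without one were narrow and weak, with a median width of 658 bp and a median fold of 3.37, against 1785 bp and 7.72 for the other 81.

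At the starts the ATAC-seq footprint followed the fold in part. Over the 36 marked Hox starts the number of bases under ATAC-seq peaks had a Spearman rho of 0.47 with fold, and over all marked protein-coding starts 0.32, as descriptions across genes of the same libraries. The median footprint was 733 bp at marked Hox starts and 950 bp at all marked starts. Hoxc13 (1482 bp), Hoxa13 (1369 bp), Hoxa4 (1323 bp), Hoxd9 (1220 bp), Hoxb9 (1216 bp) and Hoxd13 (1202 bp) had the largest footprints, and Hoxd11 (153 bp) and Hoxb13 (193 bp) the smallest above 0. Of the 4 group 13 genes, 3 were thus among the most open and the other, Hoxb13, among the least. The low value of Hoxd11 is that of its record start, since an ATAC-seq peak of 1603 bp lay over its principal start.

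Sequence composition split the clusters along the mark. Under H3K4me3 HoxA held 45.7 CG dinucleotides per Kb, HoxB 39.1, HoxC 41.2 and HoxD 51.2, against 39.8 under all autosomal H3K4me3 peaks. Outside the mark the same clusters held 11.9, 11.9, 9.83 and 12.1 per Kb, against 8.51 over the autosomes as a whole. The word AGGNGGCGC, part of the CTCF motif, was searched on both strands, since CTCF sites divide Hox clusters into domains and CTCF was the other target of the study's interaction assays. It occurred 26 times in the clusters, 4 in HoxA, 8 in HoxB, 6 in HoxC and 8 in HoxD. Of these 17 (65.4%) lay in ATAC-seq peaks and 18 (69.2%) in H3K4me3 peaks, against 47.2% and 26.3% of 17222 autosomal matches. Neither share is corrected for the larger part of the clusters that H3K4me3 peaks covered. The share in ATAC-seq peaks was not the same in each cluster, with 4 of 4 in HoxA, 4 of 8 in HoxB, 4 of 6 in HoxC and 5 of 8 in HoxD. The HoxA matches included AGGGGGCGC at chr6:52191332-52191340, 421 bp from the start of Hoxa4, and AGGTGGCGC at chr6:52257126-52257134, outside H3K4me3. CTCF binding itself was not analysed here, and a match is not a site.

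The clusters also hold microRNAs that are transcribed with the Hox genes and target some of them. Of these, the mature 5p arms of both families are shown in the RefSeq sequence, with the seed (bases 2 to 8) in capitals, because the family members differ in their chromatin.
miR-10a, from Mir10a in HoxB: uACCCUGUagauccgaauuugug
miR-10b, from Mir10b in HoxD: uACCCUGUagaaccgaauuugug
miR-196a, from Mir196a-1 in HoxB and Mir196a-2 in HoxC: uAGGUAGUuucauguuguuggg
miR-196b, from Mir196b in HoxA: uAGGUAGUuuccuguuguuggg

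The miR-10 pair share the seed ACCCUGU, and the miR-196 copies share AGGUAGU. Both miR-10 hairpins had strong H3K4me3 peaks within 1 Kb of their start. The hairpin of Mir10a (chr11:96317165-96317274) only reached the edge of the Hoxb4 peak (fold 15.1), which begins at chr11:96317268. Both of its mature arms lay outside that peak. Mir10a had 1 ATAC-seq peak within 1 Kb and began 1102 bp from the start of Hoxb4. Mir10b lay outside its peak, the inner one of Hoxd4 (fold 19.0), and had no ATAC-seq peak within 1 Kb. The miR-196 hairpins had weak peaks, with folds of 3.27 at Mir196a-1, 3.78 at Mir196a-2 and 5.60 at Mir196b, and only Mir196b lay inside its peak, that beside the start of Hoxa9, and had ATAC-seq peaks (2). Mir615, with another seed, lay in the inner peak of Hoxc5 (fold 9.63) with 4 ATAC-seq peaks.

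Of the 16 listed noncoding genes of the clusters found in the annotation, 14 had H3K4me3 and 10 had ATAC-seq within 1 Kb of the start. The 14 folds ran from 3.27 to 41.6. The highest, at Hotairm1, lay over 4799 bp outside the cluster as delimited here, was above all 36 marked Hox starts and had no ATAC-seq peak within 1 Kb. Several shared the peak of a neighbour. Haglr shared that of Hoxd1 (fold 20.3), Hoxa11os that of Hoxa11 (7.49), Hoxaas2 that of Hoxa2 (8.32) and Hoxb3os the inner peak of Hoxb2 (10.3). For Hottip the peak within 1 Kb was that of Hoxa13 (14.8). It ended at chr6:52261952, outside the Hottip record, which begins at chr6:52262775. Hoxd3os1 had a narrow peak of its own in the Hoxd3 record, 629 bp at a fold of 8.96. Hotair, a noncoding RNA of HoxC known for its links to Polycomb, had no H3K4me3 and 1 ATAC-seq peak, and its record fell in the second longest gap of the cluster (6.26 Kb). Hoxb5os had neither. ChIP-seq reads carry no strand, so a peak shared by neighbours cannot be given to either.

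Genes that neighbour, partner or regulate the Hox genes had higher median folds than the 10.7 of the members. Of 13 neighbours in the annotation 12 had H3K4me3, with a median fold of 30.6, but 5 were in the range of the Hox genes. These were the homeobox genes Evx1 and Evx2, at 10.5 and 4.78, and Ttll6, Calcoco2 and Skap1, at 4.95, 6.27 and 13.8. Hox cofactors of the Pbx, Meis and Pknox families were marked at 9 of 9 starts (median 26.3, range 17.4 to 65.2). The listed ParaHox genes Gsx1, Gsx2 and Pdx1, relatives of the Hox genes, were marked at 3 of 3 starts. Their folds of 13.7 to 19.1 (median 17.1) were inside the range of the Hox genes. Upstream regulators of Hox genes, the Cdx genes and genes of the retinoic acid and Gdf11 pathways, were marked at 8 of 9 starts (median 16.8). Of these, Cdx1, Cdx2, Cdx4 and Rara had folds of 12.7, 12.5, 9.17 and 11.1, and Cyp26a1, Rarg and Aldh1a2 20.9, 21.5 and 24.1, all inside the range of the Hox genes, while Gdf11 had 42.0. Chromatin regulators of the clusters, Polycomb and Kmt2 genes with Ctcf, were marked at 11 of 11 starts with folds of 23.1 to 59.3 (median 45.2).

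The label of the cells was checked with markers fixed for this purpose. Pluripotency genes had H3K4me3 at 9 of 10 starts and ATAC-seq at 10 of 10, with a median fold of 26.4, and Esrrb had no H3K4me3 at the start of its record. Fibroblast genes, which the feeder cells would bring, had both kinds of peak at 7 of 10 starts, with folds of 3.39 to 20.4 and a median of 15.4, and Col3a1, Lum and Postn had neither. The folds of fibroblast and Hox starts cover much the same range. Whether feeder cells contributed to the Hox peaks was not tested.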

How the data were processed

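H3K4me3 ChIP-seq and ATAC-seq peak lists of F123 cells were used, 1 list for 2 replicates each. PLAC-seq and input samples were not analysed here. The H3K4me3 list came from the ENCODE histone ChIP-seq pipeline run by the authors with default settings, and its aligner, caller version and threshold are not given in the sources used here. The deposited columns hold positions, a fold enrichment (a ratio over the caller's background), −log10 values of p and q, the summit and a display score that was not used. For the ATAC-seq list the submitters' processing notes name alignment by Bowtie 1.1.2, handling by SAMtools, peak calls by MACS2 2.1.1.20160309 and intersection by bedtools 2.27.1. Read ends were shifted for the Tn5 insertion, and the list holds positions only. Neither list has read counts, so depth is unknown and no test was run.

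Peaks were joined to GENCODE M21 genes (mm10) by an overlap of at least 1 bp, within 1 Kb of the 5′ end of the gene record. A gene was read against all protein-coding genes, members included, and a cluster, from its outermost member records, against autosomal windows of its own length laid end to end. Every member is accounted for. Full values were given to the highest and lowest fold, the widest and narrowest start peak of each cluster, members lacking a peak at the start and those whose start base was outside H3K4me3. The members, gene lists and settings were chosen with earlier results of these data known. Alternatives were other windows, starts, peak filters and extents, and RefSeq starts were added after seeing the data. Overlaps were tested on simulated intervals and checked against bedtools 2.31.1, with the same counts. All 24 RefSeq windows equalled the genome at their coordinates. Scripts ran in Python 3.11.15, with pandas 2.3.3 and numpy 2.4.6 for tables, matplotlib 3.10.9 for plots and scipy 1.17.1 for intervals.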

Additional observations from a re-analysis of the deposited data

How the results depend on the processing

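Of 61 alternative values, 27 stayed within the limits set for them, which were 1.5 times the main value for a count and the 95% interval of the main value otherwise. The count of 36 Hox starts with H3K4me3 ranged from 33 to 38 over the alternatives that used all 38 genes, and was 21 of 22 at RefSeq starts. The count of 32 with ATAC-seq ranged from 29 to 37, except for 21 when the start base itself had to lie in a peak and 18 of 22 at RefSeq starts, where fewer genes were counted. H3K4me3 lay over 38 gene records, and over at least 50% of the record in 22. Coverage of HoxA, HoxB, HoxC and HoxD by H3K4me3 was 51.3, 32.0, 33.7 and 38.3% with peaks of a −log10 q of at least 5, and 52.1, 31.5, 36.2 and 36.9% with 10 Kb added on either side. It was 59.8, 36.3, 42.4 and 45.8% with peaks under 1 Kb apart joined, and 52.7% in HoxA, 32.7% in HoxB and 39.9% in HoxC from the first to the last gene start. HoxA stayed the most and HoxB the least covered cluster under each of these. The widest 50% of ATAC-seq peaks gave 22.3, 15.5, 18.1 and 18.6 per 100 Kb in HoxA, HoxB, HoxC and HoxD. Each list stands for both replicates, so no replicate could be left out. No paired analysis was possible because no value of a single replicate was used. The missing depth limits what the absence of a peak at Hoxb3, Hoxc4 or an inner start can show.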
